A study of Mus musculus with 24 samples.

Results

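Small intestine in which Apc had been deleted was compared with wild-type small intestine at day 4 after induction of Cre recombinase. The comparison used 6 of the 24 arrays of the series, 3 per genotype, chosen by the source names that give day and genotype, and all 15427 genes with a named probe set were examined. The other 18 arrays were small intestine of both genotypes at days 3 and 5 (12 arrays) and colon and polyps of ApcMin mice (6 arrays). The Apcfl/fl mice carried loxP-flanked Apc alleles and the AhCre transgene, and the wild-type mice carried AhCre and no floxed allele. Mice of both genotypes were given β-naphthoflavone at 80 mg/kg 3 times in a day, so the agent that switches the transgene on was shared by the controls. The promoter of AhCre is that of Cyp1a1, which is active in gut epithelium and liver on exposure to aryl hydrocarbon receptor ligands. The mice were kept on an outbred background.

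Some features limit the groups as a model. RNA came from whole small intestinal tissue, so a lower signal can mean fewer cells of a type or less RNA per cell, and the arrays cannot tell these apart. The 3 day 4 Apcfl/fl arrays are labelled with replicate numbers and no animal name. The wild-type labels hold animal names, and the replicate numbers given to them here follow the order of the samples. The 3 day 4 wild-type animals carry names starting in Ras, unlike the rest of the series, so what that name stands for and genotype cannot be told apart at day 4. Nothing in the labels says that arrays of a group came from separate litters or days.

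Apc is the scaffold of the complex that marks β-catenin for destruction. Without Apc, β-catenin enters the nucleus and acts with Tcf/Lef factors on Wnt target genes. In the small intestine Wnt signalling is normally confined to the crypt, where cells divide, and it falls as cells move onto the villus and take on digestion and absorption. Cells that divide need nucleotides, amino acids and lipids for growth, and villus cells need brush border enzymes, carriers and detoxifying enzymes. The groups of genes below follow these functions.

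Signals are given as scaled signals, in which each array has a geometric mean of 100 over its probe sets. A log2 difference is the Apcfl/fl mean minus the wild-type mean of log2(scaled signal + 16), and the added 16 shrinks the differences of dim genes. Adjusted p-values are from limma with Benjamini-Hochberg adjustment over all probe sets, and 0.05 was the threshold. The number of arrays limits the precision of every value, and each mean ± SD is over 3 arrays. Pearson's r between arrays ran from 0.970 to 0.976 within the Apcfl/fl group, from 0.962 to 0.967 within the wild-type group and from 0.909 to 0.929 between them. The spread of log2 signals within an array was larger in the Apcfl/fl arrays (SD 2.26 to 2.34) than in the wild-type arrays (SD 2.00 to 2.18), with no overlap. The 3'/5' ratio of the Gapdh control probe sets was also higher without overlap, 0.797 to 0.827 against 0.745 to 0.763, and that of Actb overlapped. The part of array spread and RNA quality in the differences below was not tested beyond the rescaled alternatives. The brightest Apc probe set gave 551 ± 67.2 in Apcfl/fl and 443 ± 91.3 in wild-type arrays (log2 difference 0.32, adjusted p = 0.277). Its position with respect to the loxP-flanked exon is not known here, so it checks no label.

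At day 4, 2298 genes were higher (14.9% of genes tested) and 1518 were lower (9.84%) in Apcfl/fl intestine. Counts of called genes in each list below are to be read beside these shares. The lists and their members were chosen with earlier results of these data known. A count that differs from these shares can therefore follow in part from that choice. The log2 difference was above 1 in 1044 of the higher genes and below -1 in 699 of the lower genes. Every Apcfl/fl array lay above every wild-type array for 4852 genes (31.5%) and below for 3258 (21.1%). Of the higher genes, 2151 also had a positive difference at both day 3 and day 5, and of the lower genes 1374 had a negative difference on both days. At day 3, 10.7% of genes passed as higher and 7.44% as lower, and at day 5 the shares were 20.6% and 12.9%. The median over all genes was 0.03. Bright genes stood higher than dim ones: among the 9517 genes with a mean signal of 100 or more the median was 0.23, with 21.2% higher and 7.71% lower, and among the 5910 dimmer genes it was -0.25. Higher genes made up 60.2% of those past the threshold. This split depended on the scaling, since quantile normalization gave 1552 higher and 1666 lower genes (48.2% higher) and the deposited standardized scores gave 1452 and 1562 (48.2%). Without Apcfl/fl replicate 1 there were 1308 higher and 765 lower genes, and without wild-type replicate 2 there were 1338 and 862. Leaving out Apcfl/fl replicate 2, wild-type replicate 1 or wild-type replicate 3 also moved the count of lower genes by over 1.5 times, to 961, 983 and 948. Where a call below is said to be lost without a named array, that array is 1 case. Many of these calls were also lost without other arrays.

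The largest increases were those of a carrier and a receptor. Slc7a5, the light chain of the LAT1 carrier of large neutral amino acids, gave scaled signals of 669, 766 and 361 in the Apcfl/fl arrays and 31.5, 7.54 and 21.1 in the wild-type arrays. The lowest Apcfl/fl array lay more than 10 times above the highest wild-type array, and the ratio of means was 29.9 (log2 difference 4.08, 95% confidence interval 2.84 to 5.32, adjusted p = 0.000301). The wild-type mean of Slc7a5 was 20.1 at day 4, against 64.6 at day 3 and 102.6 at day 5. Its genotype difference was 2.00 and 3.19 on those days. The day 4 wild-type level did not differ past the threshold from that of days 3 and 5 (log2 difference -1.29, limma adjusted p = 0.27). Tnfrsf12a, the receptor for the cytokine TWEAK, gave 749, 603 and 279 against 17.9, 11.8 and 14.6. Apcfl/fl replicate 3 was the lowest of its group for both genes, and its value for Tnfrsf12a was still far above all wild-type arrays (log2 difference 4.08, interval 3.33 to 4.83, adjusted p = 4.15e-06). Pole, the catalytic subunit of the leading-strand DNA polymerase epsilon, gave 429.6, 312 and 399.6 against 14.6, 9.92 and 8.64 (log2 difference 3.87, adjusted p = 4.05e-06). Tnfrsf19, a TNF receptor family member known from crypt cells, gave 547, 405 and 459 against 29.3, 29.7 and 37 (log2 difference 3.33, adjusted p = 4.05e-06). These 4 genes were separated by a wide gap in every array.

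The rest of the 15 largest increases covered several functions. They held the transcription factors Etv4 and Ascl2 (3.18 and 2.93 on the log2 scale), the phosphatase Dusp4 (2.74) and the ferric reductase Cybrd1 (3.58). Lpcat4 and Mboat1, which both reattach fatty acids to lysophospholipids, rose by 2.78 and 2.69. The muscle proteins Tnni1 (slow troponin I) and Myl7 (atrial myosin light chain) were also among them (2.81 and 2.66), with the tetraspan membrane protein Emp2 (2.80) and the centrosomal protein Cep72 (2.65). Tnni1 gave 235, 439 and 285 against 93.5, 14.8 and 13.3, so that the highest wild-type array held most of that group's signal. Of 16 smooth muscle markers 1 passed, as lower (median -0.68, from -1.24 to -0.15 with single arrays left out). Rnase1, a ribonuclease that the pancreas secretes, gave 979, 5973 and 757 against 154, 120.0 and 83.5 (log2 difference 3.66, adjusted p = 0.00649). Its highest value came from Apcfl/fl replicate 2, the array in which the summed signal of 8 exocrine pancreas markers reached 49498, against a lowest Apcfl/fl sum of 669.5 and wild-type sums of 761 to 1204. The pancreatic protease Ctrb1, for example, gave 168, 9702 and 26.4 against 12.5, 44.4 and 15.8. The other Apcfl/fl arrays of day 4 were also above every day 4 wild-type array for Rnase1. On the other days it did not pass between genotypes (adjusted p = 0.199 at day 3 and 0.388 at day 5). Its wild-type mean was 369 at day 3 and 1859 ± 2769 at day 5, where the Apcfl/fl mean was 1454. The part of pancreatic RNA in its value was not tested.

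**Figure D1:**
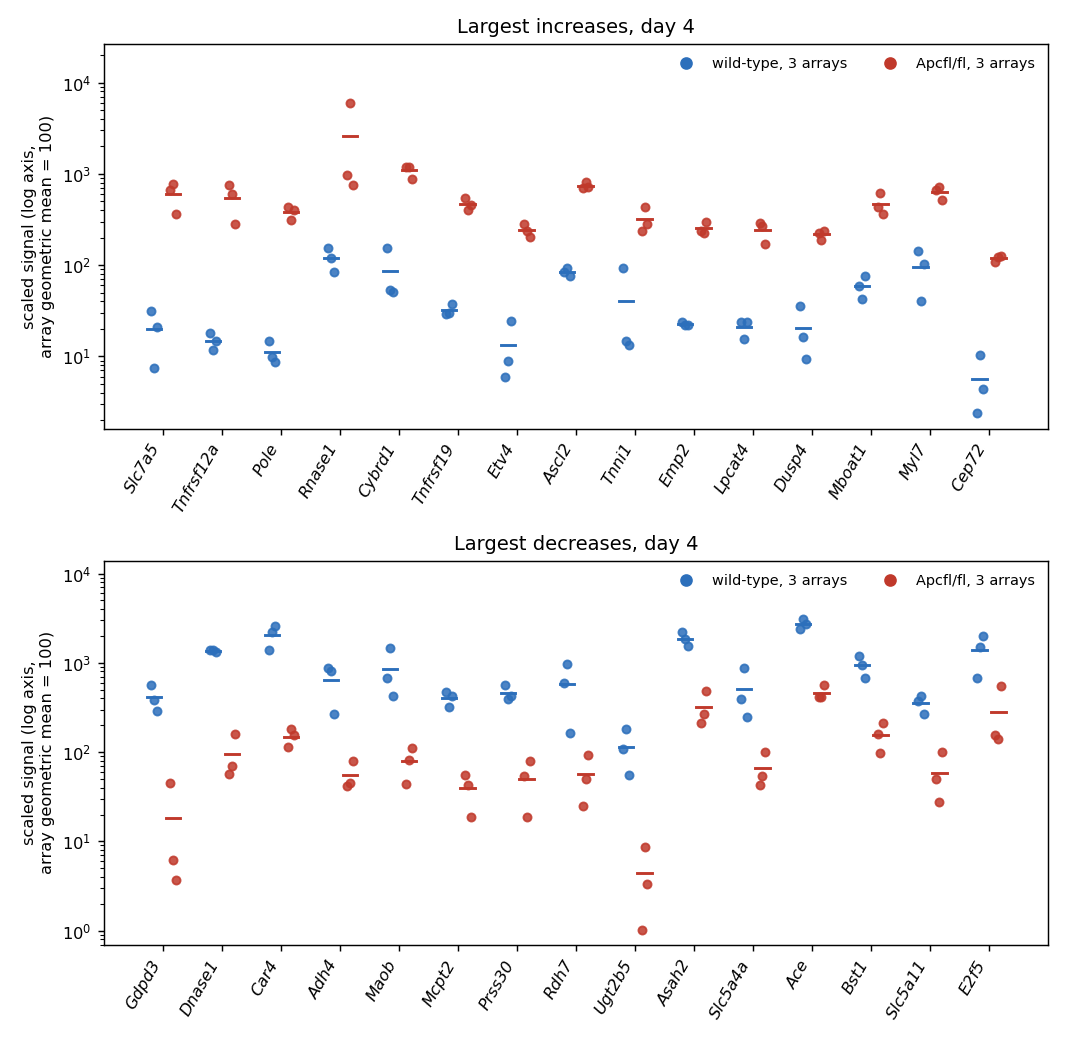
Scaled signal (log axis, array geometric mean set to 100) of the 15 largest increases and 15 largest decreases at day 4. Each point is 1 array, blue for wild-type and red for Apcfl/fl, and the short lines are group means. The points of the 2 genotypes do not overlap for any gene shown, which the choice of the genes required, and Rnase1 has 1 Apcfl/fl array at 5973 far above the others.

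The 15 largest decreases held secreted and membrane enzymes, sugar carriers, dehydrogenases and single genes of other functions. Dnase1, a secreted deoxyribonuclease, gave 57.2, 70 and 159 in the Apcfl/fl arrays against 1395, 1376 and 1308 in the wild-type arrays (log2 difference -3.73, interval -5.25 to -2.21, adjusted p = 0.00215). The wild-type arrays were almost equal and the Apcfl/fl arrays spread, with replicate 3 highest. Car4, a carbonic anhydrase anchored to the outer membrane, gave 113, 181 and 154 against 1401, 2221 and 2583, a ratio of 13.9 in favour of wild-type (log2 difference -3.63, adjusted p = 0.000337). Adh4, an alcohol dehydrogenase that also oxidises retinol, gave 41.2, 45.2 and 80 against 873, 804 and 270.3 (-3.09, adjusted p = 0.000339). Asah2, the neutral ceramidase of the brush border, gave 209.9, 268 and 478 against 2193, 1839 and 1546 (-2.55, adjusted p = 0.00245). Bst1, an ectoenzyme of NAD metabolism, and Prss30, a serine protease, fell by 2.50 and 2.94 on the log2 scale. E2f5, a repressor-type cell cycle factor, fell by 2.39, but its call was lost without any of 4 single arrays (adjusted p up to 0.0804) and under the mean of its probe sets (adjusted p = 0.286).

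Gdpd3, a phospholipase D that acts on lysophospholipids, had the largest decrease of all and was a special case. It gave 45.4, 6.13 and 3.7 against 557, 384 and 292 (log2 difference -3.79, adjusted p = 4.05e-06). The wild-type mean was 41.2 at day 3 and 15.3 at day 5, and the genotype difference was -0.01 and -0.57 on those days. The day 4 wild-type level was the value that stood apart. It was 1 of 3 genes (0.0194%) whose day 4 genotype difference differed from the mean of the day 3 and day 5 differences by a test of that contrast (adjusted p = 0.000925), and 984 had an unadjusted p under 0.05. In all, 77 genes (0.499%) differed between day 4 wild-type and the mean of day 3 and day 5 wild-type, and 30 of them were among the genes called between genotypes at day 4.

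Genes of nucleotide synthesis rose almost as a block. Of 28 genes measured for purine, pyrimidine and one-carbon synthesis, 23 were higher and none was lower, against 14.9% higher among all genes, and the list median was 1.19 against 0.03. Under quantile normalization and under the standardized scores 19 were still higher. In the purine pathway, Ppat, which commits phosphoribosyl pyrophosphate to purines, rose by 1.29 and Prps2, which supplies that substrate, by 1.33. Gart, Pfas, Paics, Adsl and Atic, the enzymes of the following steps, rose by 1.69, 1.15, 1.59, 0.81 and 1.19. At the branch to guanine nucleotides Gmps rose by 1.11, while Impdh1 gave -0.30 (adjusted p = 0.416). Paics gave 1362, 1220.1 and 1444 in the Apcfl/fl arrays and 441, 455 and 407 in the wild-type arrays, so each group spread little and the gap between them was about 3-fold (ratio 3.09, adjusted p = 0.000144). Its partner by position and pathway, Ppat, gave 330.3, 269.9 and 245 against 97.6, 89.7 and 130.8.

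Pyrimidine genes showed the same direction. Cad, which starts the pathway, Dhodh in the mitochondrion and Umps at its end rose by 1.20, 0.90 and 1.04. Ctps, which makes CTP, gave 888, 898 and 1002 against 352, 313 and 452 (log2 difference 1.30, adjusted p = 0.000958). For deoxynucleotides, both subunits of ribonucleotide reductase (Rrm1, 1.23, and Rrm2, 1.29), thymidine kinase Tk1 (1.19) and the pyrophosphatases Dut (1.41) and Dctpp1 (1.23) were higher. Tyms, which makes thymidylate, gave 0.46 and did not pass (adjusted p = 0.268). Nme1, a nucleoside diphosphate kinase, had the largest difference of the list, with 4012, 3157 and 3648 in Apcfl/fl and 668, 576 and 932 in wild-type arrays (log2 difference 2.31, adjusted p = 0.000572). Every Apcfl/fl value was more than 3 times the highest wild-type value. The related Nme2 rose by 0.64.

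One-carbon enzymes were higher in cytosol and mitochondrion. Mthfd1l, which releases formate inside the mitochondrion, gave 432, 506 and 511 against 106, 106 and 127 (1.95, adjusted p = 0.000357). The serine hydroxymethyltransferase of the cytosol, Shmt1, gave 994, 898 and 989.8 against 333, 299.9 and 332 (1.53, adjusted p = 0.000106), and its mitochondrial form Shmt2 rose by 1.47. Mthfd2 gave 0.95 and did not pass (adjusted p = 0.0965). The summed signal of the 28 genes was 31298 to 33813 in Apcfl/fl arrays and 12697 to 16978 in wild-type arrays. Pole, Rrm1, Rrm2 and Tk1, which serve DNA replication, rose in the same arrays, and the part of a larger share of dividing cells in the list's difference was not tested.

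Promoters of this list were searched for the E-box CACGTG, the preferred site of Myc and Max family factors, because its genes moved together. The search took the 250 bases before each RefSeq start (build GRCm38.p6), and the word is its own reverse complement, so 1 strand covers both. It was present for 4 of 26 nucleotide genes with a window (15.4%), 4 of 19 mitochondrial biogenesis genes (21.1%) and 2 of 12 serine, proline and asparagine genes (16.7%). Of the lists that fell, it was present for 2 of 23 drug-metabolising genes (8.7%) and none of 10 brush border peptidase genes. Over all 12325 genes with a window it was present in 9.21%, with 10.9% of higher, 8.05% of lower and 9.01% of the other genes. These are shares of genes that hold the letters in any of their start windows, with no test. Genes with more starts have more windows. A window of Nme1, the gene with the largest difference, and one of Atic, which closes the purine ring, are shown with the E-box in capitals. It lies 18 bases before the start in Nme1 and 7 bases before it in Atic (counted to its first base). A second Nme1 window, chr11:93968026-93968275, holds an E-box 29 bases before its start and is not shown. The Nme1 window shown lies on the minus strand at chr11:93968273-93968522 and that of Atic on the plus strand at chr1:71556906-71557155.
Nme1: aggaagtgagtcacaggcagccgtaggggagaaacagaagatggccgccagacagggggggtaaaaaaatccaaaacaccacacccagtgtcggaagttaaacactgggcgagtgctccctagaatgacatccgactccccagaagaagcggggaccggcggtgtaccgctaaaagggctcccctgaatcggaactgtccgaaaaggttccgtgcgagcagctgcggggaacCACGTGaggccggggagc
Atic: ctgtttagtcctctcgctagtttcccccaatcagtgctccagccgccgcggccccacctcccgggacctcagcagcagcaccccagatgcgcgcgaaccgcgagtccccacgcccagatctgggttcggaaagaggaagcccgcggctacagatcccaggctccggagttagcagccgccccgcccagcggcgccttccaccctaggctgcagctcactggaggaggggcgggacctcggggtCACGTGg

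Serine and asparagine synthesis rose with the nucleotide genes. Of 14 genes for serine, proline, asparagine and related amino acids, 8 were higher and none lower (median 0.74), against 14.9% and 9.84% of all genes. Under quantile normalization and the standardized scores 4 and 3 were higher and 1 was lower in each. Psat1, the aminotransferase of serine synthesis, gave 1304, 1289 and 828 in Apcfl/fl and 195, 115 and 289 in wild-type arrays (ratio 5.71, log2 difference 2.48, adjusted p = 0.00176). The step before it, Phgdh, and the step after it, Psph, rose by 0.99 and 1.56, and the call of Phgdh was lost without wild-type replicate 2 (adjusted p = 0.0742). Asns, which makes asparagine, gave 1808, 2025 and 1439.9 against 529, 645 and 693, with no overlap (1.47, adjusted p = 0.00303). Glutamine synthetase Glul rose by 1.14, and this call was lost without wild-type replicate 3 (adjusted p = 0.0684). The transaminase genes Gpt and Got1 and the branched-chain pair Bcat1 and Bcat2 gave -0.96, -0.28, -0.03 and -0.15, none past the threshold.

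Of 12 polyamine genes 4 were higher (median 0.61), against 14.9% of all genes. Among them Mtap (1.34), Adi1 (1.31) and Enoph1 (0.95) recover methionine from the methylthioadenosine that polyamine synthesis leaves behind. Mtap gave 629, 540.5 and 455 against 183, 142 and 312. Spermidine synthase Srm rose by 1.24, a call lost without Apcfl/fl replicate 1 (adjusted p = 0.0549) or wild-type replicate 2 (adjusted p = 0.0636). Odc1, which starts the pathway, gave 0.63 (adjusted p = 0.0576).

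Mitochondrial biogenesis and respiratory chain genes differed in count. Of 20 genes for mitochondrial transcription, translation and protein import 11 were higher and none lower, with a median of 0.74. Over all genes 14.9% were higher and 9.84% lower. Under quantile normalization 5 and under the standardized scores 3 were higher. Timm8a1, a chaperone of the space between the mitochondrial membranes, gave 2571, 2407 and 2258 against 1058, 778 and 1002 (1.35, adjusted p = 0.00183). Tfam, which packages and transcribes mitochondrial DNA, gave 1033, 910.4 and 978 against 514, 478 and 526 (0.92, adjusted p = 0.00906), and both genes were separated without overlap. Of 22 nuclear-encoded respiratory chain and ATP synthase subunits none passed in either direction, with differences from -0.12 (Uqcrfs1) to 0.51 (Ndufs3). Their median was 0.10 and turned to -0.07 under quantile normalization and -0.40 under the standardized scores. The difference between the 2 lists was not tested.

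Carbon metabolism genes passed in small numbers, where 14.9% of all genes were higher and 9.84% lower. Of 18 glycolysis and lactate genes 2 were higher and none lower (median -0.06), while quantile normalization gave 1 higher and 2 lower and the standardized scores none higher and 4 lower (median -0.34). One was Slc16a1, the lactate carrier MCT1, with 2406, 2166 and 2042 against 1266, 944 and 1239 (0.94, adjusted p = 0.00637). The other was hexokinase Hk2, with 939, 732 and 604 against 297, 277 and 559 (1.02, adjusted p = 0.0344), which passed by little and lost its call without any of 4 single arrays, such as Apcfl/fl replicate 1 (adjusted p = 0.134). Of 8 pentose phosphate and NADPH genes none passed (median 0.31). Of 19 citrate cycle genes 1 passed, the GTP-forming succinyl-CoA ligase subunit Suclg2 (0.90, adjusted p = 0.00571), and the list median of 0.11 turned to -0.09 and -0.32 under quantile normalization and the standardized scores. Of 8 genes of fructose breakdown and gluconeogenesis 1 was higher and 2 lower, 7 had negative differences, and the median was -0.55 (-0.20 without wild-type replicate 1 and -0.85 without wild-type replicate 3). The mitochondrial Pck2 rose (1.28, adjusted p = 0.00556), with 576, 558 and 454 against 247, 206 and 176, while the cytosolic Pck1 gave -2.09 (adjusted p = 0.0536). Ketohexokinase Khk, which starts fructose breakdown, and glucose-6-phosphatase G6pc fell by 0.92 and 1.81, and both calls were lost without Apcfl/fl replicate 1 (adjusted p = 0.135 and 0.0844).

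**Figure D2:**
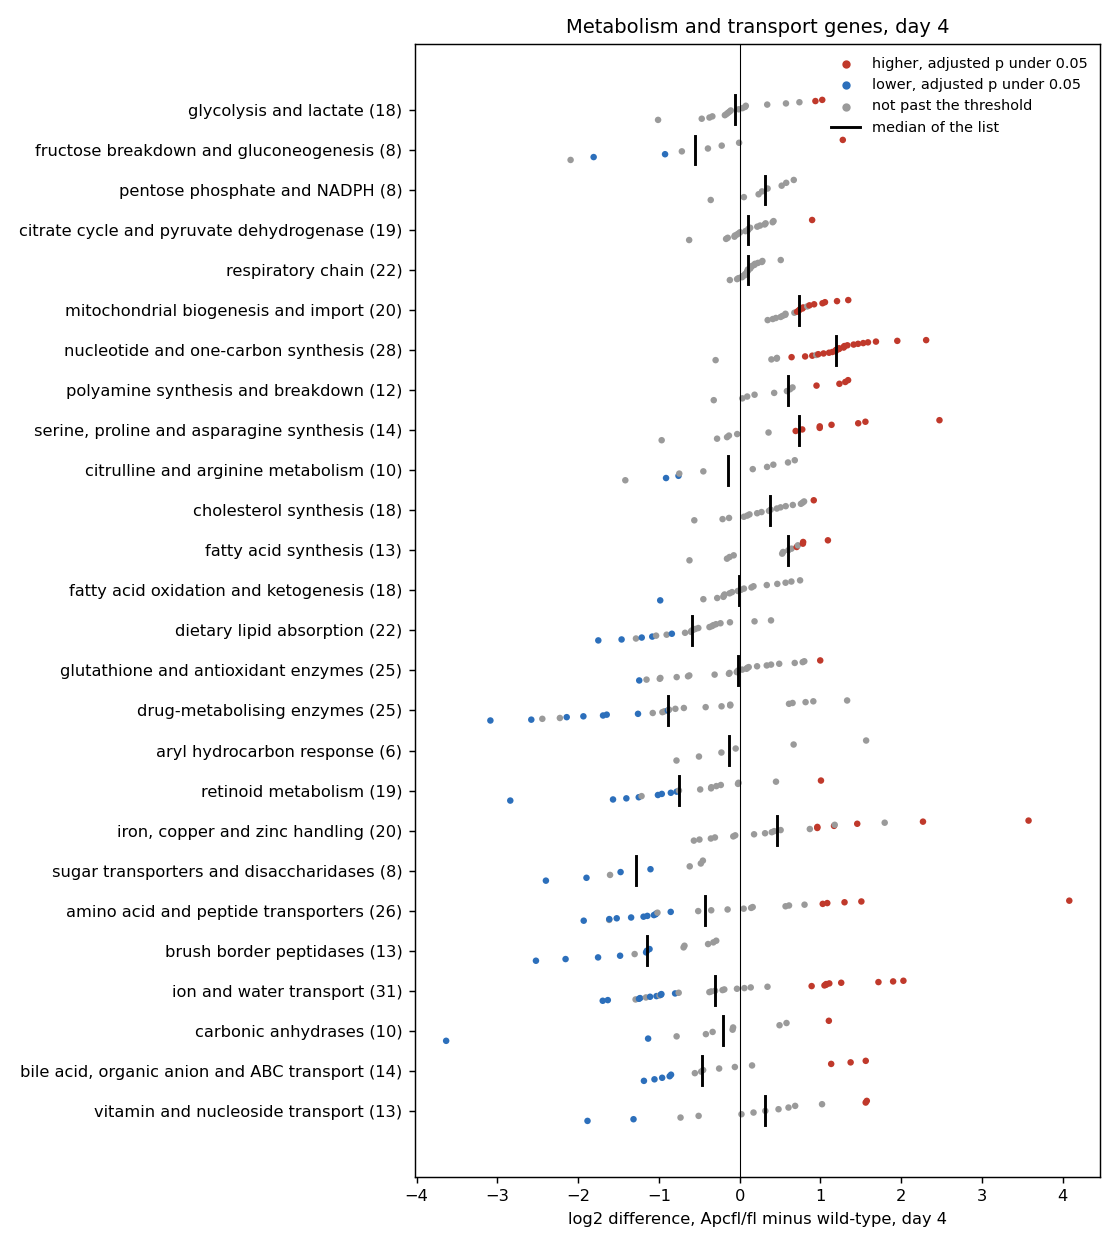
Log2 difference between Apcfl/fl and wild-type arrays at day 4 for each gene of the metabolism and transport lists, with the number of genes measured in brackets. Red points passed as higher, blue points passed as lower and grey points did not pass, and the black bars are list medians. The nucleotide list has its median at 1.19 with 23 of 28 points red, and the respiratory chain list lies around 0.10 with no coloured point.

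Of 13 fatty acid synthesis genes 4 were higher and none lower (median 0.60), against 14.9% and 9.84% of all genes. Under either rescaled alternative 1 was higher and 1 lower. Fatty acid synthase Fasn gave 1170.1, 984 and 894 against 530.2, 350.2 and 539 (1.09, adjusted p = 0.00931), a call lost without wild-type replicate 2 (adjusted p = 0.0561). Acly, Acaca and the desaturase Fads1 rose by 0.79, 0.78 and 0.71, and each lost its call without Apcfl/fl replicate 1 (adjusted p = 0.0603, 0.0624 and 0.147), and another Acly probe set was called lower. Of 18 cholesterol synthesis genes 1 passed, Fdft1 (0.92), and it too was lost without that array (adjusted p = 0.16). Of 22 genes for uptake and packaging of dietary lipid none was higher and 5 were lower (median -0.59), and 11 and 13 were lower under quantile normalization and the standardized scores. Apoc3, an apolipoprotein of chylomicrons, gave 944, 1085 and 1458 in Apcfl/fl and 5290.1, 3679 and 3001 in wild-type arrays (-1.75, adjusted p = 0.00547). Dgat2, which completes triglycerides, gave 1414, 1431 and 2222 against 4039.6, 3657 and 3845 (-1.21, adjusted p = 0.00279). The fatty acid carrier Slc27a4 and the cholesterol carrier Npc1l1 fell by 1.46 and 1.08, and their calls were lost without Apcfl/fl replicate 1 (adjusted p = 0.053) and wild-type replicate 1 (adjusted p = 0.0981). The abundant fatty acid binding proteins Fabp1 and Fabp2 gave -0.51 and -0.34 and did not pass. Of 18 fatty acid oxidation and ketogenesis genes 1 passed, the nuclear receptor Ppara that regulates them (-0.98, adjusted p = 0.00423), although not under the mean of its probe sets (adjusted p = 0.0866).

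Detoxifying enzymes fell in part. Of 25 drug-metabolising genes none was higher and 8 were lower (median -0.89 against 0.03 for all genes). Over all genes 14.9% were higher and 9.84% lower. The cytochrome P450 Cyp2c29 gave 55.9, 70.1 and 85.9 against 336, 324 and 278 (ratio 4.43 in favour of wild-type, log2 difference -1.93, adjusted p = 4.75e-05). Its relative Cyp2c38 gave 70.9, 71.1 and 71.6 against 158, 193 and 233 (-1.26, adjusted p = 0.000753), with Apcfl/fl arrays almost equal. Maob, a monoamine oxidase, gave 44.2, 81.4 and 110.2 against 684, 1450.2 and 425 (-3.09, adjusted p = 0.00553), and the neighbouring Maoa fell by 0.89, a call lost without Apcfl/fl replicate 1 (adjusted p = 0.113). Cyp2b10 spread widely, with 161, 335 and 768 against 3972, 1802 and 559, so the groups overlapped and the call was lost without wild-type replicate 1 (adjusted p = 0.171). The glucuronosyltransferase Ugt2b5 fell by 2.58, with 1.03, 8.77 and 3.33 against 107, 182 and 55.2, and was lost without Apcfl/fl replicate 1 (adjusted p = 0.0686). Genes that answer the aryl hydrocarbon receptor, the target of the inducing agent, did not pass in any of 6 cases, and 1 was lower under each rescaled alternative. Cyp1a1 gave 449, 3359 and 2255 against 3347, 1856 and 2860.2 (-0.78, adjusted p = 0.579), and its sign changed without Apcfl/fl replicate 1. Cyp1b1 gave 403, 1354 and 793 against 147, 291 and 339.7 without overlap (1.57, adjusted p = 0.0591), and it passed as higher at day 5 (1.99). Of 25 glutathione and antioxidant genes 1 rose, glutathione synthetase Gss (1.00), and 1 fell, Mgst2 (-1.24). Both calls were lost without Apcfl/fl replicate 1 (adjusted p = 0.0573 and 0.0888) and also without other single arrays. Quantile normalization gave 1 higher and 5 lower of them, and the standardized scores none higher and 4 lower.

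Retinoid genes were mainly lower, with 8 of 19 lower and 1 higher (median -0.75), against 9.84% and 14.9% of all genes. Rdh10, which oxidises retinol as the first step to retinoic acid, was the gene that rose, with 1332, 1117 and 1014 against a wild-type mean of 568 ± 98.4 (SD, n = 3), without overlap (log2 difference 1.01, adjusted p = 0.00895). Dhrs3, which works in the reverse direction, gave 108, 127 and 182 against 269, 318 and 257 (-0.96, adjusted p = 0.00408). The 3 retinaldehyde dehydrogenases Aldh1a1, Aldh1a2 and Aldh1a3 fell by 1.57, 1.01 and 1.25. Aldh1a1 gave 679, 322 and 819 against 2007, 2452 and 1005, with a wide spread in both groups, and Aldh1a3 was lost without Apcfl/fl replicate 1 (adjusted p = 0.0586). The carotenoid-splitting Bco2 fell by 1.40, the dehydrogenase Adh7 by 0.85 and Rdh7 by 2.84, the last being lost without Apcfl/fl replicate 1 or wild-type replicate 2 (adjusted p = 0.0506 and 0.0573). The receptors Rara, Rarb, Rarg and Rxra gave -0.02, -0.35, -0.01 and -0.49, none past the threshold.

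Of 20 iron, copper and zinc genes 6 were higher and none lower (median 0.47), among them the apical ferric reductase and several carriers. Over all genes 14.9% were higher and 9.84% lower, and among genes with a mean signal of 100 or more 21.2% and 7.71%. Under quantile normalization and under the standardized scores 5 were higher and 2 lower. The median was 0.74 without Apcfl/fl replicate 1 and 0.83 without wild-type replicate 1. Cybrd1, the ferric reductase of the brush border, gave 1202, 1204 and 872 in Apcfl/fl and 153, 52.8 and 50.4 in wild-type arrays, all Apcfl/fl values being more than 5 times the highest wild-type value (ratio 12.8, log2 difference 3.58, interval 2.48 to 4.68, adjusted p = 0.000335). Slc11a2, the DMT1 carrier that takes up the reduced iron, gave 723, 3929 and 1983 against 699.5, 322 and 198 (2.27, adjusted p = 0.00825). Its values spread over 5-fold in the Apcfl/fl group, 1 of them close to the highest wild-type array, and the call was at the threshold without Apcfl/fl replicate 2 (adjusted p = 0.05). The exporter Slc40a1 gave 1.80 (adjusted p = 0.0836), and the transferrin receptor Tfrc, ferritin Fth1 and the basolateral oxidase Heph gave 0.40, -0.05 and -0.08. For zinc, the importers Slc39a14 and Slc39a8 rose by 1.46 and 1.17 and the vesicle carrier Slc30a4 by 0.96. Slc39a14 gave 2231, 2272 and 2491 against 1041, 852 and 663 (adjusted p = 0.000339), and its difference was 1.47 at day 3 and 0.22 at day 5. Slc39a4, the main uptake carrier for dietary zinc, rose by 0.96, a call lost without Apcfl/fl replicate 3 (adjusted p = 0.111). Cybrd1 and Slc40a1 are strongest in the duodenum. Of 10 proximal small intestine markers, 4 had positive and 6 had negative differences (median -0.19). The 1 past the threshold as higher was Cybrd1 itself, and the 1 lower was Cyp2b10 (-2.14), whose groups overlapped. Gata4 and Fabp1 were among the negative ones, at -0.40 and -0.51 (not passed). Of 8 distal small intestine markers, 2 had positive and 6 had negative differences (median -0.38), with none higher and 2 lower past the threshold. Their summed signal was 1250 to 1945 over the Apcfl/fl arrays, against 2590 to 2896 over the wild-type ones, without overlap. The part of the region sampled in these differences was not tested.

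All 8 sugar uptake genes measured had negative differences and 4 passed (median -1.29), where 9.84% of all genes were lower. Slc5a11, a sodium-coupled inositol and glucose carrier, gave 49.5, 27.7 and 99.1 against 376, 421 and 266 (-2.40, adjusted p = 0.00228). Slc5a4a, of the same family and outside the list, gave 42.7, 53.8 and 101 against 397, 867 and 245 (-2.54, adjusted p = 0.00104), and its neighbour Slc5a4b fell by 1.90, a call lost without wild-type replicate 2 (adjusted p = 0.147). The fructose carrier Slc2a5 gave 334, 364 and 717 against 1163, 930.1 and 1853 (-1.47) and was lost without Apcfl/fl replicate 1 (adjusted p = 0.0544). Trehalase Treh fell by 1.10 and was lost without wild-type replicate 1 (adjusted p = 0.139). The main glucose carrier Slc5a1 and the basolateral Slc2a2 gave -0.62 (adjusted p = 0.0809) and -0.45 (adjusted p = 0.301).

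Of 26 amino acid carriers 5 were higher and 10 lower (median -0.43), against 14.9% and 9.84% of all genes. Under either rescaled alternative 3 were higher and 11 lower. The summed signal was 16254 to 19044 over the Apcfl/fl arrays, against 25544 to 28517 over the wild-type ones. The higher ones were Slc7a5, Slc1a4, Slc38a1, Slc1a5 and Slc7a1, which supply neutral and cationic amino acids to growing cells of many tissues. Slc38a1 gave 1396, 1672 and 1192 against 604, 495 and 593 (1.30, adjusted p = 0.00241), and Slc1a5 and Slc1a4 rose by 1.09 and 1.51. Slc3a2, the heavy chain that Slc7a5 needs at the membrane, did not follow it, with 1619, 2281 and 1807 against 2879, 2728 and 2486 (-0.51, adjusted p = 0.056), so that all Apcfl/fl arrays lay below all wild-type arrays. The lower ones include the carriers by which villus cells absorb dietary amino acids. On the brush border side, Slc6a19 for neutral amino acids, Slc3a1 and Slc7a9 for cystine and basic amino acids, Slc1a1 for acidic ones, Slc36a1 for small ones and the peptide carrier Slc15a1 fell by 1.19, 1.34, 0.85, 1.14, 1.93 and 1.04. On the basolateral side, Slc7a7, Slc7a8, Slc16a10 and Slc43a2 fell by 1.03, 1.52, 1.06 and 1.61. Slc36a1 gave 175, 179 and 174 against 971, 541 and 692 (adjusted p = 0.00127), with Apcfl/fl arrays almost equal. Slc43a2 gave 689, 745 and 1131 against 2897, 2288 and 2608 (adjusted p = 0.00292). Slc15a1 was lost without Apcfl/fl replicate 1 (adjusted p = 0.0759).

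Peptidases of the brush border were lower with them. All 13 measured had negative differences and 7 passed (median -1.15), where 9.84% of all genes were lower. Ace, which trims dipeptides from peptide ends, gave 411, 413 and 569 against 2361, 3113 and 2713 (-2.52, adjusted p = 0.00199). Mme (neprilysin) gave 389, 386 and 793 against 2606, 2298 and 1901 (-2.15, adjusted p = 0.00584), and Xpnpep2, which releases residues before proline, gave 102, 95 and 64 against 283, 382 and 321 (-1.75, adjusted p = 0.00486). Apcfl/fl replicate 3 had the highest value of its group for Ace and Mme, and the groups did not overlap. Not all peptidases passed: Anpep, Dpp4, Mep1a and Mep1b gave -0.39, -0.68, -0.29 and -0.32. Enpep fell by 1.12 (adjusted p = 0.0404). Dpep1 and Pepd fell by 1.15 and 1.16 and lost their calls without Apcfl/fl replicate 2 and replicate 1 in turn (adjusted p = 0.147 and 0.127).

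**Figure D3:**
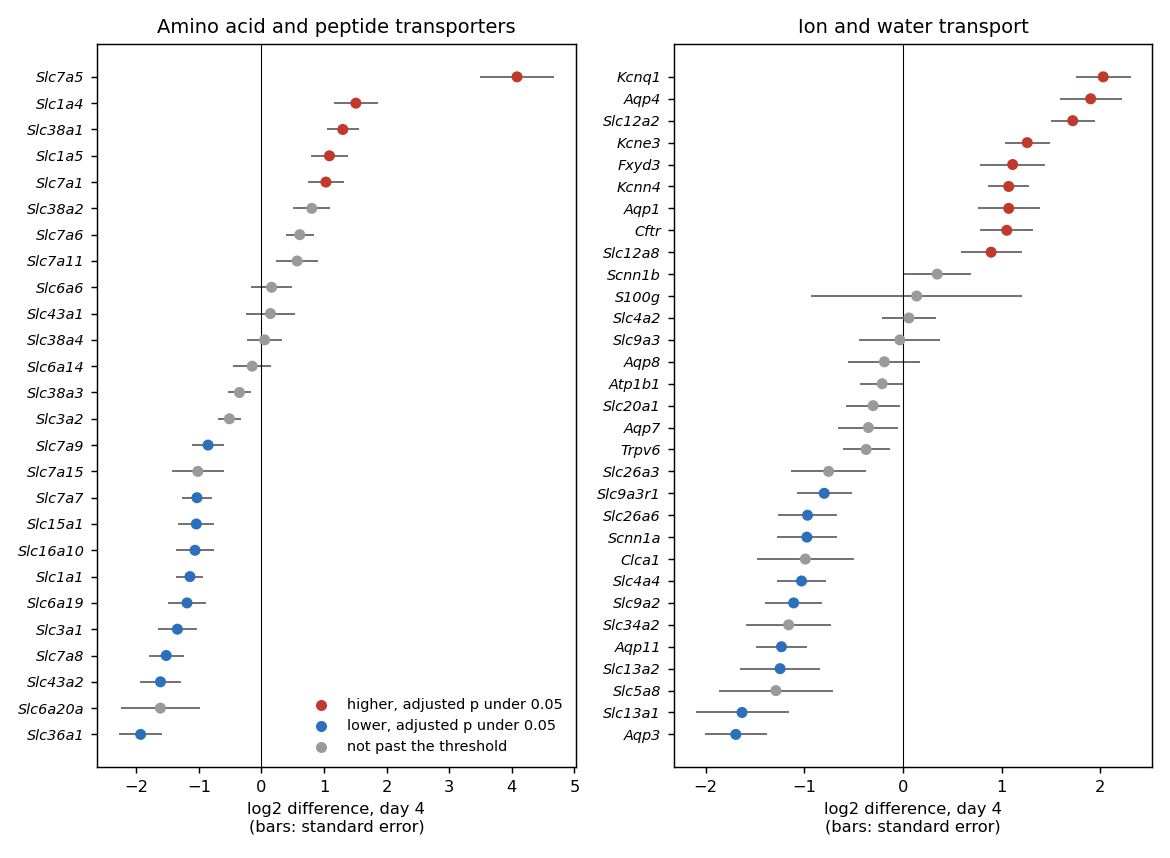
Log2 difference at day 4 of each measured gene of the amino acid carrier list (left, 26 genes) and of the ion and water list (right, 31 genes), with bars of 1 standard error. Red points passed as higher, blue as lower and grey did not pass. Slc7a5 stands alone at 4.08 on the left, and on the right 9 genes from Kcnq1 (2.03) to Slc12a8 (0.89) passed as higher and 9 passed as lower.

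Of 31 ion and water carriers 9 were higher and 9 lower (median -0.30, and -0.46 without wild-type replicate 3), against 14.9% and 9.84% of all genes. Under quantile normalization and under the standardized scores 5 were higher and 10 lower. The higher ones include those known for chloride and fluid secretion from crypts. Slc12a2, the basolateral sodium, potassium and chloride importer, gave 5321, 4809.7 and 5498 against 1555, 1694 and 1464 (ratio 3.32, log2 difference 1.72, adjusted p = 0.000135). Kcnq1, a basolateral potassium channel, gave 1087, 881 and 1116 against 342, 267 and 146 (2.03, adjusted p = 0.000199), and its β subunit Kcne3 gave 2120.3, 1635 and 1097 against 682, 653 and 598 (1.26, adjusted p = 0.00137). Both groups were well apart for all 3 genes, and Apcfl/fl replicate 3 was lowest for Kcne3. The calcium-activated channel Kcnn4 rose by 1.07 and the apical chloride channel Cftr by 1.05. The water channels went both ways. Aqp4 gave 759, 771 and 901 against 245, 194 and 179.8 (1.90, adjusted p = 0.000781) and Aqp1 rose by 1.07, while Aqp3 gave 41.6, 80.7 and 69.2 against 261, 226 and 224 (-1.69, adjusted p = 0.00156) and Aqp11 fell by 1.23. Aqp11 did not pass under the mean of its probe sets (adjusted p = 0.0573).

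The lower ion carriers, most of them known from absorption, were the sodium/proton exchanger Slc9a2 and its regulator Slc9a3r1, the anion exchanger Slc26a6, the bicarbonate carrier Slc4a4, the sulphate carrier Slc13a1, the citrate carrier Slc13a2 and the sodium channel subunit Scnn1a, which fell by 1.11, 0.80, 0.97, 1.03, 1.63, 1.25 and 0.97. Slc9a3, the main exchanger for sodium uptake, gave -0.03 (adjusted p = 0.965). Among 10 carbonic anhydrases, which supply protons and bicarbonate to these carriers, Car4 and Car6 fell by 3.63 and 1.13 and Car12 rose. Car12, a basolateral membrane form, gave 598, 458 and 452 against 255, 175 and 248 (1.11, adjusted p = 0.00335). The cytosolic Car2 gave -0.09 and did not pass (adjusted p = 0.873).

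Of 14 bile acid, organic anion and ABC carriers 3 were higher and 5 lower (median -0.46, and -0.15 without wild-type replicate 1), against 14.9% and 9.84% of all genes. Abcc1, a basolateral exporter of conjugates, gave 443, 417 and 345 against 141, 144 and 148 (1.38, adjusted p = 0.000343). Slco3a1, an organic anion carrier, gave 320.2, 321 and 303 against 109, 90.7 and 88.9 (1.56, adjusted p = 0.000226), and both genes were clearly apart. Abcc4 rose by 1.13, a call lost without Apcfl/fl replicate 1 (adjusted p = 0.0528). The apical exporter Abcg2 and both subunits of the bile acid exporter, Slc51a and Slc51b, fell by 0.87, 1.05 and 1.18, all lost without Apcfl/fl replicate 1 (adjusted p = 0.0881, 0.0993 and 0.0853). Of 13 vitamin and nucleoside carriers 2 were higher and 2 lower, near the shares of all genes. Their median of 0.32 was 0.57 without wild-type replicate 1, 0.07 without wild-type replicate 3 and 0.13 under quantile normalization. The thiamine carrier Slc19a2 gave 546, 619.5 and 676 against 169.8, 240.1 and 180.4 (1.58, adjusted p = 0.00137). The equilibrative nucleoside carrier Slc29a1 gave 483, 498 and 407 against 139.7, 145 and 152 (1.56, adjusted p = 0.00137). The sodium-coupled nucleoside carrier Slc28a3 fell by 1.31, lost without Apcfl/fl replicate 3 (adjusted p = 0.0851), and the vitamin C carrier Slc23a1 gave 46, 68.4 and 38.9 against 153, 259 and 293 (-1.88, adjusted p = 0.00322).

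Several MAPK output genes rose. Of 20 feedback and immediate early genes 8 were higher and 1 lower (median 0.51), against 14.9% and 9.84% of all genes. Etv4, an Ets factor of the Pea3 family, gave 279, 236 and 204 against 5.9, 8.97 and 24.6 (ratio 18.2, log2 difference 3.18, adjusted p = 0.000642). Dusp4, a nuclear MAPK phosphatase, gave 226, 190.5 and 239 against 35.8, 16.5 and 9.33 (2.74, adjusted p = 1.24e-05), and its wild-type level at day 4 also differed from that of days 3 and 5 (log2 difference -1.06, past the threshold). Phlda1 gave 1773, 1634 and 1055 against 246, 179 and 359 (2.45, adjusted p = 9.82e-05), and the immediate early factor Egr1 gave 685, 953 and 896 against 274, 189 and 263 (1.74, adjusted p = 0.00126). Every Apcfl/fl array lay above every wild-type array for all 4, which held for 31.5% of all genes tested. Other feedback genes did not pass, Dusp6, Spry1, Spry2 and Fos giving -0.04, 0.01, 0.03 and -0.04, and Fosb fell by 0.82, a call lost without Apcfl/fl replicate 1 (adjusted p = 0.0929). Upstream, among 11 EGF family ligands and receptors, the ligand betacellulin (Btc) rose, with 409, 369 and 269 against 149.5, 114 and 119.9 (1.33, adjusted p = 0.00437). Epgn, another ligand, fell by 0.88 and was lost without Apcfl/fl replicate 3 (adjusted p = 0.139). The receptors Egfr, Erbb2 and Erbb3 gave -0.51, 0.20 and -0.37, none past the threshold.

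**Figure D4:**
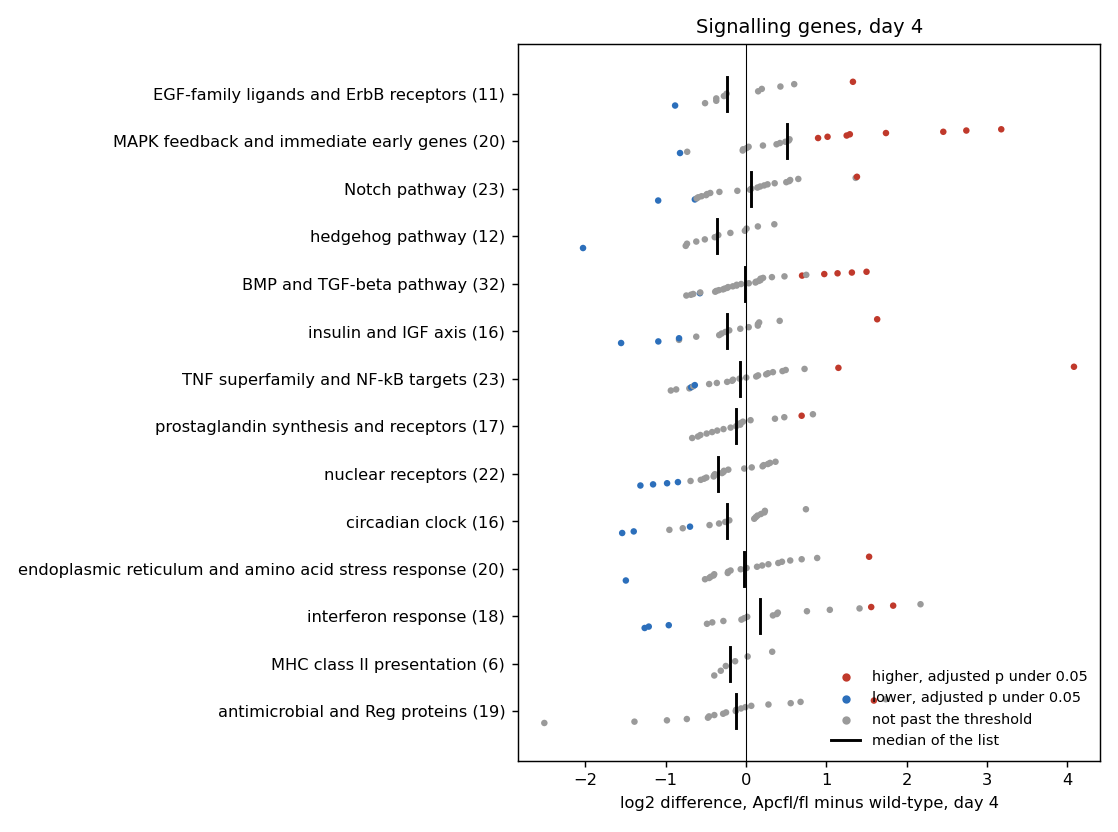
Log2 difference at day 4 for each gene of 14 signalling and defence lists, with the number of genes measured in brackets. Red points passed as higher, blue points as lower, grey points did not pass and black bars are list medians. Most medians lie within 0.40 of 0, the MAPK list stands at 0.51, and single genes such as Tnfrsf12a (4.08) and Shh (-2.03) lie far from their lists.

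In the TGF-β and BMP pathway 5 of 32 genes were higher, near the 14.9% of all genes, and 1 was lower, against 9.84% (median -0.01). Quantile normalization gave 3 higher and 2 lower. The calls included the type I and type II TGF-β receptors. Tgfbr2 gave 1757, 1727 and 1492 against 575, 609 and 542 (1.50, adjusted p = 0.00112) and Tgfbr1 rose by 0.70, which did not pass under the mean of its probe sets (adjusted p = 0.358). The other risers were Id1, Id2 and Id3, inhibitors of helix-loop-helix factors that BMP signals induce. Id1 gave 1771, 1508 and 1696 against 697, 554 and 726 (1.32, adjusted p = 0.000915) and Id3 gave 1160.0, 1100.4 and 1238 against 675, 435 and 478 (1.14, adjusted p = 0.00487). Id2 rose by 0.97, a call lost without wild-type replicate 3 (adjusted p = 0.133), and Id4 gave -0.74 (adjusted p = 0.0629). Ligands Bmp2, Bmp4, Bmp7 and Tgfb1 gave -0.66, -0.37, 0.75 and -0.38 and the inhibitory Smad6 and Smad7 -0.12 and -0.34, none past the threshold.

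The 2 hedgehog ligands of the gut differed. Shh gave 73.9, 77.3 and 101 in Apcfl/fl and 270.2, 467 and 466 in wild-type arrays (ratio 4.77 in favour of wild-type, log2 difference -2.03, adjusted p = 0.00378), and it was also low at days 3 and 5 (-1.65 and -2.26). Ihh gave 355, 391 and 382 against 417, 391 and 321 (0.01, adjusted p = 0.987). Epithelium sends these ligands to the mesenchyme, where Ptch1, Gli1, Hhip and Foxf1 respond, and these gave 0.15, -0.39, -0.51 and -0.62, none past the threshold. In the Notch pathway 1 of 23 genes was higher and 2 lower, against 14.9% and 9.84% of all genes. The median of 0.07 turned to -0.07 and -0.09 under quantile normalization and the standardized scores. Hes6, a Hes family member that opposes Hes1, rose, with 849.7, 684 and 673 against 318, 275 and 227 (1.38, adjusted p = 0.00187). Dtx1, a ubiquitin ligase of the pathway, gave 129, 94.5 and 173 against 293, 317 and 272 (-1.09, adjusted p = 0.00377). The ligand Dll1 fell by 0.64, a call lost without wild-type replicate 1 (adjusted p = 0.082), and Notch1 and Hes1 gave 0.23 and 0.54 (not passed).

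In the insulin and IGF axis 1 of 16 genes was higher and 3 were lower, near the 24.7% of all genes called in either direction. The median of -0.23 was -0.07 without wild-type replicate 2 and -0.36 without wild-type replicate 3. Igfbp4 gave 4239, 4079 and 4111 in Apcfl/fl and 1359, 1320.2 and 1298 in wild-type arrays, a ratio of 3.12 with arrays almost equal within each group (1.63, adjusted p = 0.000818). Igfbp5 gave 166, 83 and 146 against 384, 474.5 and 360.4 (-1.55, adjusted p = 0.00101). Igf2bp3, which binds Igf2 mRNA, gave 229.6, 219.6 and 156 against 445, 403 and 483 (-1.09, adjusted p = 0.00509). Igfbp3 fell by 0.83 and was lost without wild-type replicate 2 (adjusted p = 0.14). The growth factors and receptors Igf1, Igf2, Igf1r and Insr gave 0.16, -0.26, 0.15 and -0.21, none past the threshold.

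Most genes of the TNF and NF-κB list did not rise with Tnfrsf12a, and 2 of 23 were higher and 2 lower, against 14.9% and 9.84% of all genes. The median was -0.08, and 0.02 with 1 higher and 4 lower under the standardized scores. The receptor Tnfrsf19, which this list leaves out, rose by 3.33. Nfkb2, a member of the noncanonical NF-κB pathway, rose by 1.15, a call lost without wild-type replicate 3 (adjusted p = 0.12). Tnfaip3, an inhibitor of the canonical pathway, fell by 0.68, and its call was lost when any 1 array was left out (adjusted p up to 0.119). The receptor Tnfrsf1a fell by 0.64, a call lost when any 1 array other than wild-type replicate 2 was left out (adjusted p up to 0.183). Nfkbia, Cxcl1 and Tnf gave -0.36, 0.13 and 0.25 (not passed). Of 17 prostaglandin genes 1 passed, the synthase Ptges2 (0.69). It was lost when any 1 array other than wild-type replicate 1 was left out (adjusted p up to 0.148). Cyclooxygenase Ptgs2 gave -0.07 (adjusted p = 0.917).

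Of 22 nuclear receptors none was higher and 4 were lower (median -0.34), against 14.9% and 9.84% of all genes. Nr3c2, the mineralocorticoid receptor, gave 87.1, 106 and 114 against 245, 244 and 251 (-1.16, adjusted p = 0.00469), with no overlap. Nr5a2 (Lrh-1), a regulator of intestinal steroid and bile acid genes, gave 152, 145 and 162 against 312, 275 and 279 (-0.85, adjusted p = 0.00898), though not under the mean of its probe sets (adjusted p = 0.126). Hnf4g fell by 1.31, lost without Apcfl/fl replicate 1 (adjusted p = 0.11), while Hnf4a gave 0.22. Of 16 clock genes 3 were lower, all output factors of the PAR bZIP family. Hlf gave 31.9, 40.8 and 46.2 against 112, 156 and 124 (-1.40, adjusted p = 0.00601), and Dbp and Tef fell by 1.54 and 0.70, both lost without wild-type replicate 2 (adjusted p = 0.191 and 0.149). The core genes Arntl, Clock and Per1 gave 0.10, 0.23 and -0.26 (not passed). The sources used here do not state the time of day of dissection.

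Of 20 endoplasmic reticulum and amino acid stress genes 1 was higher and 1 lower (median -0.03), against 14.9% and 9.84% of all genes. Under either rescaled alternative 1 was higher and 3 were lower. Ddit4, an inhibitor of mTORC1, gave 799, 878 and 1010.4 against 282, 352 and 266 (1.53, adjusted p = 0.00249). Creb3l3, a membrane-bound factor of liver and gut that regulates triglyceride genes, gave 810.4, 975 and 1978 against 3549, 2997 and 3394 (-1.50, adjusted p = 0.00748). Atf4, its targets Trib3 and Chac1, and the chaperone Hspa5 gave 0.28, 0.14, 0.69 and 0.20, none past the threshold, in arrays where the Atf4-linked genes Asns and Psat1 rose.

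Of 18 interferon response genes 2 were higher and 3 lower, near the 24.7% called over all genes, and 4 of the 5 calls were lost without single arrays. The median of 0.17 was 0.04 without Apcfl/fl replicate 3 and turned to -0.04 and -0.12 under quantile normalization and the standardized scores. Bst2 (tetherin) gave 598, 690.3 and 909 against 148, 190.4 and 247 (1.83, adjusted p = 0.0101), against -1.28 at day 3 and 0.50 at day 5. Ifit3 rose by 1.56, against -0.93 and 1.44, and was lost without Apcfl/fl replicate 3 (adjusted p = 0.0534). Gbp2, Igtp and Irf1, which answer interferon-γ most strongly, fell by 1.26, 1.21 and 0.96, and each call was lost without Apcfl/fl replicate 1 (adjusted p = 0.0811, 0.156 and 0.078). None of 6 MHC class II genes passed, although 1 was lower under quantile normalization and 3 were under the standardized scores (median -0.61). Cd74 and H2-Ab1 gave -0.14 and -0.31. Of 19 antimicrobial and Reg genes 1 passed, Reg4, a lectin of enteroendocrine and goblet cells, with 1445, 3115 and 2049 against 672, 764 and 627 (1.59, adjusted p = 0.00521). Reg2 gave 129.6, 9859.6 and 78.6 against 194, 145 and 92.3 and did not pass (adjusted p = 0.395). Apcfl/fl replicate 2, with the high exocrine pancreas signal, was the highest array of its group for both. The other 2 Apcfl/fl arrays also lay above every wild-type array for Reg4, and the part of pancreatic RNA was not tested.

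Collagen, fibroblast, matrix, smooth muscle, endothelial and nerve lists changed in few genes, all of which were lower, where 9.84% of all genes were lower. Of 27 collagen and basement membrane genes 1 passed, Col14a1, a fibril-associated collagen (-0.96), and it was lost without Apcfl/fl replicate 1 (adjusted p = 0.063). The list median was -0.24, and the fibrillar Col1a1, Col1a2 and Col3a1 gave -0.53, -0.50 and -0.78, none past the threshold. The summed signal was 5973 to 9707 over the Apcfl/fl arrays, against 9212 to 10984 over the wild-type ones, with overlap. Of 14 fibroblast markers 1 passed as lower, Dpt. Its call was lost when any 1 array other than wild-type replicate 3 was left out (adjusted p up to 0.137). Pdgfra, Dcn and Lum gave -0.09, -0.13 and -0.88. Of 20 matrix remodelling genes the gelatinases Mmp2 and Mmp9 fell by 0.96 and 1.20, lost without Apcfl/fl replicate 1 (adjusted p = 0.138) and replicate 2 (adjusted p = 0.0659).

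Smooth muscle content varied between arrays of both groups. Of 16 markers 1 passed, Synm (-0.95), which was lost when any 1 array other than Apcfl/fl replicate 2 was left out (adjusted p up to 0.22). The median of -0.68 was -0.15 without Apcfl/fl replicate 1, -1.24 without Apcfl/fl replicate 2 and -1.10 without wild-type replicate 3. The summed signal was 3323 to 13816 over the Apcfl/fl arrays, against 6334 to 15674 over the wild-type ones, lowest in Apcfl/fl replicate 1 and, among wild-type arrays, in replicate 3. Des gave 11.1, 508 and 259 against 332, 414 and 73.4 and Actg2 gave 160.0, 1928 and 861 against 1227, 1322 and 449, so these genes followed the array more than the genotype. Endothelial markers had 1 of 18 lower (Cldn5, -0.64, lost without wild-type replicate 2, adjusted p = 0.116) and sums of 2079 to 2304 against 2119 to 2511. Of 14 nerve, glia and pacemaker genes 1 passed, the neuronal nitric oxide synthase Nos1, with 131.5, 86.4 and 86.5 against 244, 265 and 251 (-1.22, adjusted p = 0.00422). Nos1 did not pass under the mean of its probe sets (adjusted p = 0.126), and the neuronal markers Elavl4, Uchl1 and S100b gave -0.67, -0.27 and -0.14. The summed signal of this list was 766 to 1138 over the Apcfl/fl arrays, against 1316 to 1438 over the wild-type ones, without overlap.

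Mast cell markers were the immune list with the largest shift. All 8 had negative differences and 3 passed (median -1.13), where 9.84% of all genes were lower. The summed signal was 158 to 250 in Apcfl/fl against 841 to 1077 in wild-type arrays. Mcpt2, a protease of mucosal mast cells, gave 56.1, 43.3 and 18.8 against 466, 321 and 426 (ratio 10.3 in favour of wild-type, log2 difference -2.97, adjusted p = 0.00976). At days 3 and 5 its difference was 0.79 and -2.21, so the direction was not shared by all days. Cpa3 gave 33.7, 37.8 and 60.4 against 126, 119 and 149.9 (-1.32, adjusted p = 0.0148) and was lost without Apcfl/fl replicate 1 (adjusted p = 0.0636), and Mcpt1 gave -2.04 (adjusted p = 0.107). Cma1 fell by 1.15 and was lost without Apcfl/fl replicate 3 (adjusted p = 0.157).

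Other immune lists had few calls, where 14.9% of all genes were higher and 9.84% lower. Of 12 T cell and intraepithelial lymphocyte genes 1 was lower, Cd8a (-0.99), which was lost without wild-type replicate 1 (adjusted p = 0.156), and sums were 5884 to 7142 against 6783 to 10640. Of 14 macrophage and dendritic cell genes Tyrobp and Itgax were lower (-0.65 and -0.77), and 4 were under either rescaled alternative, with sums of 4309 to 6068 against 6145 to 7004. Itgax, an integrin of dendritic cells, gave 192, 155 and 121 against 337, 261 and 235 and was lost without Apcfl/fl replicate 3 (adjusted p = 0.0931), and Tyrobp was lost without Apcfl/fl replicate 1 (adjusted p = 0.144). Of 9 B cell and plasma cell genes 1 passed and it was higher. This was syndecan-1 (Sdc1), which plasma cells and epithelium both carry, with 1453, 1189 and 1058 against 658, 581 and 662 (0.93, adjusted p = 0.00441). Jchain and Mzb1, which epithelium lacks, gave -0.12 and -0.60 (not passed). Of 5 neutrophil genes 1 was lower, Ngp (-0.63), lost when any 1 array was left out (adjusted p up to 0.178).

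**Figure D5:**
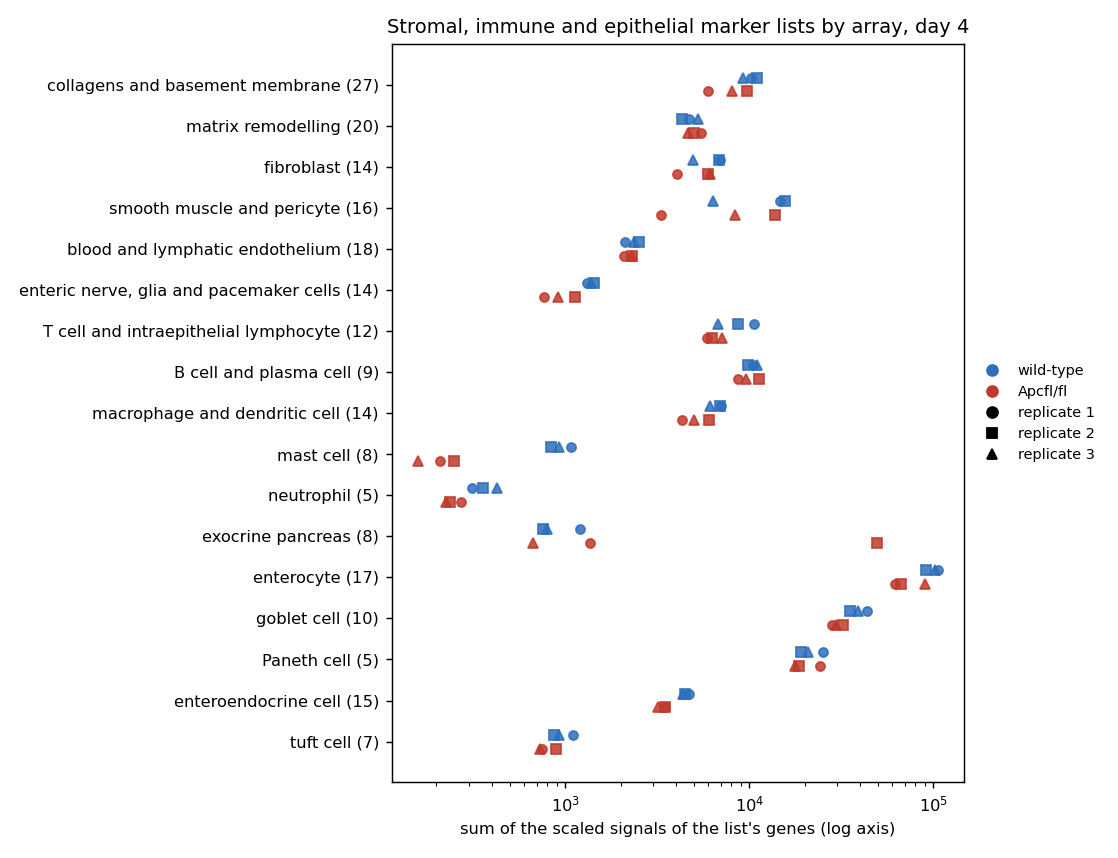
Sum of the scaled signals (log axis) of the genes of 17 marker lists in each day 4 array, blue for wild-type and red for Apcfl/fl, with circle, square and triangle for replicates 1, 2 and 3. Mast cell sums are 158 to 250 for Apcfl/fl, against 841 to 1077 for wild-type, smooth muscle sums spread widely in both groups, and 1 Apcfl/fl array reaches 49498 for exocrine pancreas.

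Epithelial marker lists were also summed in each array. No other tissue was set beside these sums, so they do not check the tissue label. The summed signal of 17 enterocyte markers was 61594 to 90734 over the Apcfl/fl arrays, against 91001 to 106358 over the wild-type ones. All 17 had negative differences and 2 passed (Slc15a1 and Treh), where 9.84% of all genes were lower. Under quantile normalization and the standardized scores 8 and 12 were lower. The defining markers Vil1, Alpi, Fabp1 and Fabp2 gave -0.30, -0.27, -0.51 and -0.34, and the list median was -0.49 with a lowest value of -1.60. How far fewer enterocytes account for the lower carrier, peptidase and detoxifying genes was not tested. Goblet cell sums were 28004 to 32343 against 35512 to 43858, Paneth cell sums 17793 to 24174 against 19057 to 25024, enteroendocrine sums 3205 to 3491 against 4371 to 4681 and tuft cell sums 732 to 888 against 869 to 1098. In the junction and keratin list Krt18, a keratin of simple epithelium, gave 5043, 4324 and 4761 against 1793, 1446 and 2088 (1.41, adjusted p = 0.00142), while its partner Krt8 gave 0.04. The claudins went both ways, Cldn2 of the crypt rising by 1.20 and Cldn15 falling by 0.83. Both calls were lost without Apcfl/fl replicate 1 (adjusted p = 0.106 and 0.131). That of Cldn15 was lost when any 1 array was left out, and that of Cldn2 for any other than wild-type replicate 3.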

How the data were processed

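Total RNA of whole small intestine was hybridised by the authors to Affymetrix MOE430_2 arrays, 1 per sample. The sources used here do not name the summarisation software. The authors deposited, for each probe set and array, a score: the natural log of the probe set's signal minus the array mean, divided by the array SD, as read from the values, and this fixes the mean and spread of every array. The 2 deposited tables held the same 842640 values. Linear signals were recovered from the scores (whole steps of 0.1 in 100% of values checked), scaled to a geometric mean of 100 per array and analysed as log2(signal + 16). The planned design allowed for linear or log2 values, and the recovered linear signal was used. The recovery rests on the scores alone, so the authors' score scale was kept as an alternative.

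The 35066 probe sets other than controls were fitted with limma 3.58.1 (R 4.3.3) on the 18 small intestinal arrays, 1 mean per genotype and day, with moderated two-sided tests and Benjamini-Hochberg adjustment over all probe sets at a threshold of 0.05. The script was first tested on simulated data. A gene is represented by its brightest probe set (15427 genes with a single symbol, while 769 probe sets with several symbols and 6144 with none were left unnamed). No column lacked a sample. P-values measure the spread between these arrays, which may be partly technical.

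Of 1053 genes written in 62 lists, 926 were measured. Members and lists were chosen with earlier results of these data known. Named genes were the 15 largest increases and decreases past the threshold (groups not overlapping, mean signal of the higher group at least 100), up to 6 members per list with the lowest adjusted p, up to 2 that moved against the majority, 2 with the largest difference where none passed, and up to 5 genes in each direction whose day 4 effect differed from days 3 and 5. Further members are given where steps of a pathway are described. Alternatives were the scaling, the offset (1 or 64), a filter on dim probe sets, the arrays fitted, the variance model, the mean of probe sets, a test against a log2 difference of 1, and leaving out each array.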

Additional observations from a re-analysis of the deposited data

Results flagged for a closer look

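The day 4 genotype difference of 3 genes differed from the mean of the day 3 and day 5 differences by the test of that contrast in limma. For Gdpd3 the gap was -3.50 on the log2 scale (adjusted p = 0.000925), with a wild-type mean of 411 ± 135 at day 4 against 41.2 and 15.3 at days 3 and 5. For Ear3, an eosinophil-type ribonuclease with dim probe sets, the gap was -2.18 (adjusted p = 0.00178), with 4.27, 3.15 and 3.14 in Apcfl/fl and 41.2, 79.9 and 69.4 in wild-type arrays at day 4 and wild-type means of 3.87 and 2.66 on the other days. Pla2g2a, a secreted phospholipase of Paneth cells, had a gap of -3.49 (adjusted p = 0.000925). It gave 4136, 4397 and 3627 against 6822, 4839 and 5355 at day 4, where it did not pass between genotypes, and wild-type means of 361 and 206 at days 3 and 5. For all 3 genes the day 4 wild-type animals, whose names begin with Ras, were far above the wild-type animals of the other days, and what the name stands for cannot be told apart from day and genotype.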

How the results depend on the processing

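The count of higher genes (2298) was 1452 under the standardized scores and 19 in the test against a log2 difference of 1, and that of lower genes (1518) was 877 without dim probe sets and 2 in that test. With the single arrays left out in turn the counts ran from 1308 to 1722 and from 765 to 1038. The 3 genes with a day 4 effect of their own were 1 under the standardized scores and 1 without dim probe sets, and 3 to 5 with arrays left out. Rescaling moved list medians. Under the standardized scores they were -0.40 for the respiratory chain, 0.42 for mitochondrial biogenesis, 1.01 for nucleotide synthesis, 0.45 for serine, proline and asparagine, -0.67 for amino acid carriers, -1.53 for brush border peptidases and -1.50 for mast cells. Under quantile normalization they were -0.065, 0.51, 0.95 and 0.51 for the first 4 of these lists, 0.43 for MAPK output and -0.37 for collagens. Without dim probe sets the medians were -0.93 for amino acid carriers, 0.71 for MAPK output and -2.04 for mast cells (3 genes left). With the mean of probe sets they were 0.50 for serine, proline and asparagine and 0.41 for MAPK output. Offsets of 1 and 64 gave 0.59 and 0.36 for MAPK output and -1.54 and -0.60 for mast cells. Leaving out single arrays gave medians of 0.43 to 0.62 for MAPK output, -0.51 to -0.36 for amino acid carriers, -1.42 to -0.92 for peptidases, -0.32 to -0.16 for collagens, -1.19 to -0.74 for drug-metabolising enzymes, -0.46 to -0.21 for ion and water carriers, -1.28 to -0.87 for mast cells, 0.66 to 0.80 for mitochondrial biogenesis, 1.04 to 1.31 for nucleotide synthesis, 0.02 to 0.18 for the respiratory chain, -0.89 to -0.47 for retinoids, 0.59 to 0.85 for serine, proline and asparagine and -1.54 to -1.03 for sugar carriers. Signs changed for 4 named genes that had not passed: Cyp1a1 (-1.35 to 0.076 with single arrays left out, 0.076 without Apcfl/fl replicate 1), H2-Eb1 (-0.13) and Ndufb5 (-0.17) under the standardized scores, and Hbb-b2 (-0.35 to 0.45 with single arrays left out, -0.09 and -0.22 without Apcfl/fl replicates 1 and 2, and -0.35 without wild-type replicate 3). The cause was not tested. Of 184 named genes past the threshold none changed sign, 103 kept their call with each array left out in turn, and 94 kept it under all alternatives other than the test against a log2 difference of 1. No paired analysis was possible because the labels give no pairing of animals. Dim genes are compressed by the offset of 16, and 3 arrays per group limit what can pass.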
